A study of Mus musculus with 31 samples.

Results

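Serotonin receptor genes were examined in the basolateral amygdala (BLA) of 31 mice. The 9 genes Htr1a, Htr1b, Htr1f, Htr2a, Htr2c, Htr3a, Htr4, Htr5a and Htr7 were chosen by symbol from the 48709 genes of the count tables, and 8 of them were among the 17428 genes that passed the filter on low counts. The mice were 16 WT animals and 15 CYFIP1 OE animals, which carry a human CYFIP1 bacterial artificial chromosome injected into C57BL/6N embryos. Each of the lines labelled 1 and 3 descends from its own founder, so that the site and number of insertions go with the line, and the study calls its lines 1 and 2. Line 1 comprised 8 WT mice and 7 CYFIP1 OE mice, and line 3 comprised 8 mice of each genotype. Males and females were in every group, with 4 of each except for 3 males among the CYFIP1 OE mice of line 1. The WT mice were aged 58 to 61 days and the CYFIP1 OE mice 58 to 77 days, the 4 mice aged 77 days all being CYFIP1 OE mice of line 1. For each mouse, punches of the left and right BLA were combined before RNA extraction, and 1 library was sequenced from the 3′ ends of transcripts by QuantSeq.

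Serotonin reaches the amygdala through axons of the raphe nuclei, whose cell bodies lie in the brainstem, and its receptors there act on principal neurons, interneurons and incoming axons. Most of the receptors couple to G proteins. The 5-HT1 and 5-HT5 receptors (Htr1a, Htr1b, Htr1f, Htr5a) act through Gi/o, which lowers cyclic AMP, the 5-HT2 receptors (Htr2a, Htr2c) through Gq, which activates phospholipase C, and the 5-HT4 and 5-HT7 receptors (Htr4, Htr7) through Gs, which raises cyclic AMP. Htr3a encodes a subunit of the 5-HT3 receptor, a cation channel opened by serotonin. Htr1b is known as a receptor of axon terminals, including those of striatal projection neurons, and Htr2c is known for strong expression in the choroid plexus as well as in neurons.

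Libraries held 5286708 to 8685308 reads in genes, with a median of 7387585. Levels are given as CPM, read counts scaled to library size after TMM normalization. QuantSeq yields about 1 fragment per transcript irrespective of its length, so that CPM were compared between genes without division by length. How fully the 3′ ends of each gene were captured and counted was not tested. The order and shares of genes given below are therefore those of counted reads and may differ from those of transcripts. The punches differed in their marker RNA. Summed CPM of 9 striatal projection neuron markers ran from 131.7 to 2543 between mice, of 8 excitatory neuron markers of BLA and cortex from 57.1 to 1515, and of 8 choroid plexus markers from 20.19 to 8502. Of the striatal markers, only Drd2 had a median of 0 CPM, while Drd1 had one of 166.6, Adora2a of 75.05 and Gpr6 of 19.91 CPM. All 8 excitatory markers had reads, though Rspo2, which marks BLA principal neurons, was at 0 CPM in the lowest mouse and at 6.515 CPM in the median mouse. Among markers of serotonin neurons, Tph2 and Slc6a4 did not exceed 1.653 and 1.245 CPM and Fev had 0 reads in all mice. Of 4 line 3 mice sharing a name prefix (3 WT and 1 CYFIP1 OE), 3 were low in striatal markers, with 131.7, 136.1 and 346.5 CPM against a median of 1400 in the other 27 mice. These 3 had 4796, 8502 and 6309 CPM of choroid plexus markers against a median of 304.3 and a maximum of 4237 CPM in the other 27. The striatal sum of 346.5 CPM was still above the minimum of 303 CPM among the other 27. The fourth, a WT mouse, had 1169 CPM of striatal and 34.56 CPM of choroid plexus markers, both within the range of the other 27 mice. The 4 were left out together in alternatives. The CYFIP1 OE mouse of the 4 had the lowest connectivity to the other libraries (Z = -4.76, the next being -1.17). Mouse Cyfip1 had a median of 34.95 CPM in WT and 33.83 CPM in CYFIP1 OE mice (log2 fold change -0.02, standard error 0.08, edgeR adjusted p = 0.999), a gene that does not check the labels, since the transgene is human and its transcripts were not analysed here.

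Htr1b and Htr2c dominated the counted reads of the 9 receptor genes in these punches. Htr1b (ENSMUSG00000049511, chromosome 9 of GRCm38, 81628291 to 81633828, minus strand) averaged 38.2 ± 18.2 CPM (SD, n = 31), and Htr2c (ENSMUSG00000041380, chromosome X, 146962513 to 147197277, plus strand) averaged 32.4 ± 10.2 CPM. No other member exceeded a mean of 3.514 CPM. Htr1b ran from 3.64 CPM in the lowest mouse over a median of 38.46 to 81.9 CPM in the highest, and Htr2c from 15.37 over 30.2 to 51.76 CPM. The range of Htr1b was thus 22.5-fold and that of Htr2c 3.37-fold. Htr1b exceeded Htr2c in 21 of 31 mice, and their mean log2 difference did not depart from 0 (0.07, SD 1.28, sign-flip permutation p = 0.763, adjusted p = 0.898).

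The remaining Gi/o-coupled members were low. Htr1f (ENSMUSG00000050783, chromosome 16, 64924729 to 65105854) had 3.27 ± 2.10 CPM, Htr1a (ENSMUSG00000021721, chromosome 13, 105443639 to 105448122), the receptor that opens potassium channels on cell bodies and dendrites, had 3.03 ± 1.93 CPM, and Htr5a (ENSMUSG00000039106, chromosome 5, 27842149 to 27855088) had 2.002 ± 0.9493 CPM. Htr1f lay between 0.4698 and 10.1 CPM, Htr1a between 0.5864 and 8.695 CPM, and Htr5a between 0 and 3.578 CPM, with 1 mouse at 0 reads. Of the Gs-coupled receptors, Htr7 (ENSMUSG00000024798, chromosome 19, 35958734 to 36057507) had 3.51 ± 2.36 CPM and Htr4 (ENSMUSG00000026322, chromosome 18, 62324204 to 62496577) had 1.47 ± 0.849 CPM. The channel subunit Htr3a (ENSMUSG00000032269, chromosome 9, 48899213 to 48911099) had 1.573 ± 1.601 CPM and was at 0 reads in 4 mice.

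Htr2a (ENSMUSG00000034997, chromosome 14, 74640840 to 74709494), the second Gq-coupled member, was close to the limit of detection. It had 0.571 ± 0.678 CPM, no read in 11 of 31 mice and 10 or more reads in 4, with 125 reads in all mice together, and it was left out of the tests by the filter. In the order of mean CPM (Htr1b, Htr2c, Htr7, Htr1f, Htr1a, Htr5a, Htr3a, Htr4, Htr2a), the mean log2 CPM difference departed from 0 in 2 of the 8 neighbouring pairs. The test was a two-sided sign-flip permutation test of the differences, adjusted over the 8 pairs, and the order came from the same values. Htr2c was above Htr7 in 31 of 31 mice by a mean log2 difference of 3.37 (SD 1.16, adjusted permutation p = 8e-05). Htr4 was above Htr2a in 22 of 31 mice by 1.29, less than the SD of 1.53 between mice (adjusted permutation p = 0.00056). The pairs Htr1a and Htr5a, and Htr5a and Htr3a, had an adjusted permutation p of 0.0674, and the other 4 pairs one of 0.45 or more. For Htr3a and Htr4 the log2 values ran against the CPM means, with a mean log2 difference (Htr3a minus Htr4) of -0.25 and Htr3a above Htr4 in 11 of 31 mice.

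**Figure D1:**
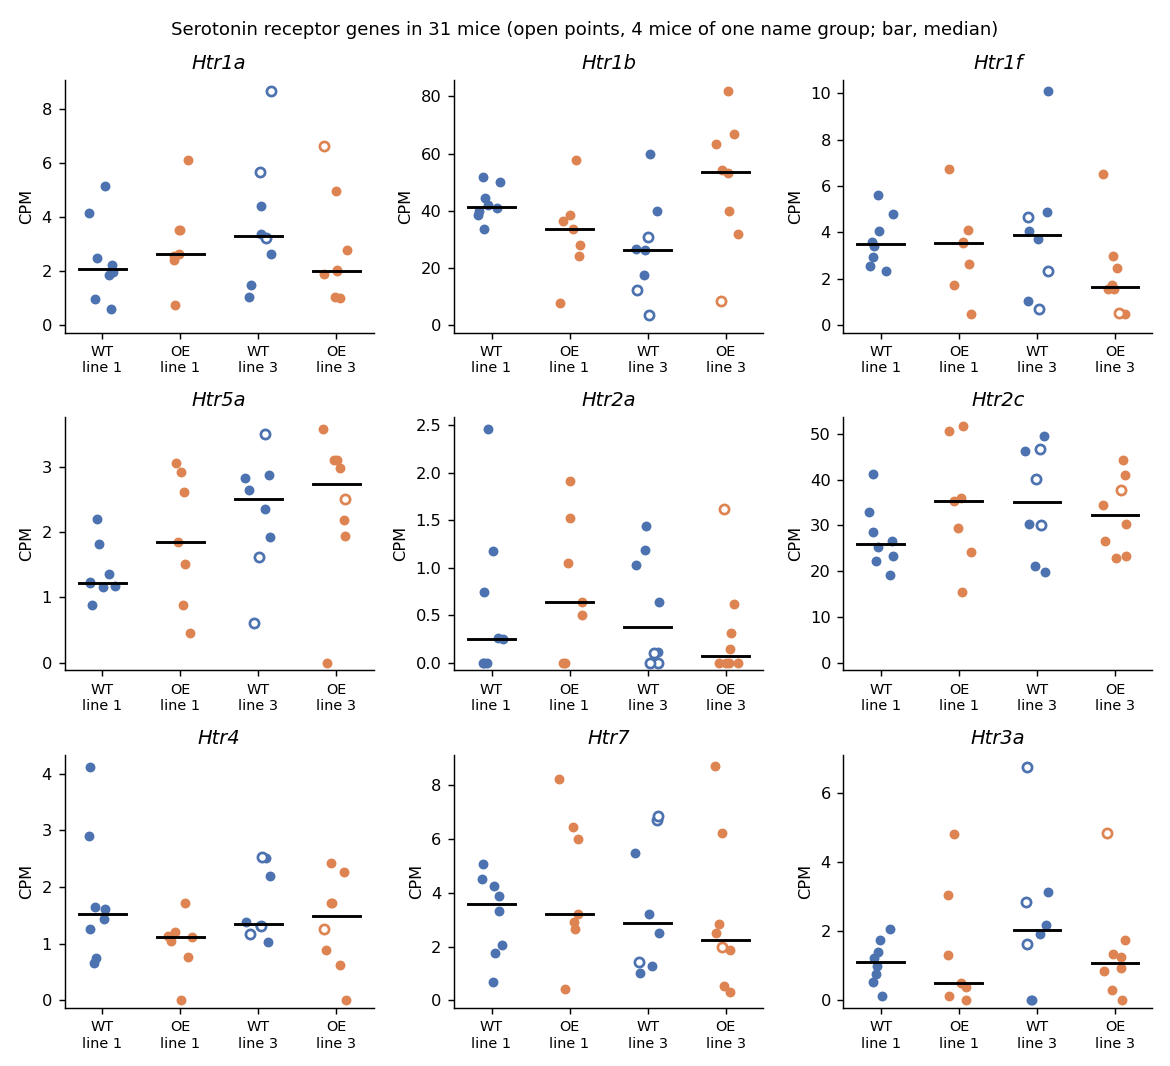
CPM of the 9 receptor genes (y axis, linear, 1 panel per gene) in each of the 31 mice by genotype and line, with a bar at the group median and open points for the 4 line 3 mice that share a name prefix. Htr1b and Htr2c reach 81.9 and 51.76 CPM while Htr2a stays at or under 2.458 CPM, and in every panel the points of WT and CYFIP1 OE mice overlap within each line.

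Counting error was a small part of the spread for Htr1b and Htr2c and a larger part for the low members. The variance expected from counting reads was 1.59% of the variance between mice for Htr1b and 4.27% for Htr2c. It was between 8.43% and 11.2% for Htr1a, Htr1f, Htr3a and Htr7, 17.1% for Htr2a, and the largest for Htr4 (28.1%) and Htr5a (30.5%). The edgeR biological coefficient of variation was lowest for Htr2c at 0.307, stood at 0.532 for Htr1b and was highest for Htr3a at 1.02. Reads per mouse ran from 36 to 523 for Htr1b and from 116 to 462 for Htr2c, while the median mouse had 21 reads of Htr7, 23 of Htr1f, 19 of Htr1a, 14 of Htr5a, 10 of Htr4, 8 of Htr3a and 2 of Htr2a. Htr1b overlaps D430036J16Rik, an antisense gene with 659 reads over all mice against 8585 of Htr1b, and Htr3a overlaps the antisense gene Gm32335. Whether the counting used strand is not given in the sources used here, so reads of these pairs may not be told apart.

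As shares of the summed CPM of the 9 members, the receptor balance was 43.2% ± 17.1 Htr1b and 38.2% ± 12.7 Htr2c (SD, n = 31). Htr7 made up 4.21% ± 2.91, Htr1f 3.89% ± 2.55, Htr1a 3.74% ± 2.73, Htr5a 2.38% ± 1.16, Htr3a 1.91% ± 2.09, Htr4 1.74% ± 1.02 and Htr2a 0.690% ± 0.850. By coupling, the Gi/o class held 53.2% ± 14.8, the Gq class 38.9% ± 12.7, the Gs class 5.96% ± 3.23 and the channel 1.91% ± 2.09. These classes hold the 9 members alone. They leave out Htr1d (Gi/o, mean 8.35 CPM), Htr3b (channel, 1.46 CPM) and Htr6 (Gs, 1.35 CPM), so they are not shares of all serotonin receptor genes. The Gi/o share ran from 19.2% to 72.5% between mice and the Gq share from 22.9% to 62.3%. The sum of the 9 members varied less, with 86.1 ± 12.7 CPM and a range from 63.1 to 122.3 CPM.

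Between the 4 groups of genotype and line, mean shares ran from 32.7% to 50.6% for Htr1b and from 32.4% to 44.2% for Htr2c. Htr1b exceeded Htr2c in 8 of 8 WT mice of line 1, 3 of 7 CYFIP1 OE mice of line 1, 4 of 8 WT mice of line 3 and 6 of 8 CYFIP1 OE mice of line 3. The Htr1b share averaged 50.6% ± 6.35 (SD, n = 8) in WT mice of line 1 and 39.5% ± 18.1 (n = 7) in CYFIP1 OE mice of that line. In line 3 it averaged 32.7% ± 18.5 (n = 8) in WT and 49.6% ± 18.3 (n = 8) in CYFIP1 OE mice. In the 4 line 3 mice that share a name prefix it was 18.7% ± 15.0, against 46.9% ± 14.3 in the other 27 mice. These shares are a description and were not tested, and since the shares of a mouse sum to 100%, a low Htr1b share raises the others.

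**Figure D2:**
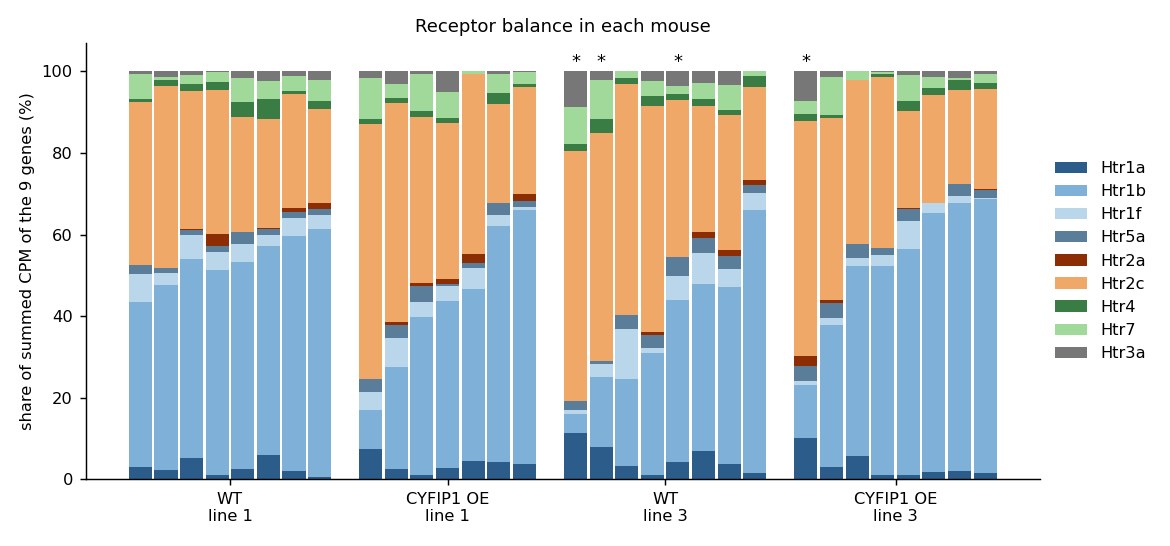
Share of each receptor gene (y axis, percent of the summed CPM of the 9 genes) in each mouse, 1 bar per mouse, grouped by genotype and line and ordered within a group by the Htr1b share; asterisks mark the 4 line 3 mice that share a name prefix. Htr1b (mid blue) and Htr2c (orange) fill most of every bar, and the Htr1b share runs from 4.762% to 66.97%.

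The level of Htr1b followed that of striatal projection neuron markers from mouse to mouse. Over the 31 mice, log2 CPM of Htr1b and log2 summed CPM of the 9 striatal markers had Pearson's r = 0.94 and Spearman's rho = 0.94 (permutation p = 1e-05 for each, the smallest that 100000 permutations can give, adjusted p = 0.00044 for each over the 88 pairs of 8 members and 11 marker lists). With the 2 mice most distant from the median marker sum left out r was 0.90, and by genotype it was 0.94 (CYFIP1 OE) and 0.97 (WT). Within line 1 r was 0.89, within line 3 it was 0.96, and without the 4 mice sharing a name prefix it was 0.88. The mouse lowest in Htr1b (3.64 CPM) had 136.1 CPM of striatal markers, and the CYFIP1 OE mouse of the same name group (8.601 CPM of Htr1b) had 131.7 CPM of them. The tested gene most like Htr1b was Drd1, the D1 dopamine receptor, with r = 0.96, followed by Pde1b (r = 0.95) and Dach1 (r = 0.94). Other striatal markers were close, with r = 0.93 for Adora2a and Pde10a, and the Gi/o-coupled receptor Htr1d had r = 0.80 with Htr1b. In bulk tissue, fewer cells of a type and less RNA per cell cannot be told apart.

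Htr1b also had relations of both signs with the sums of other lists. It rose with the summed list for the central and intercalated amygdala (r = 0.87, rho = 0.80, adjusted permutation p = 0.00044 for each), a sum in which Meis2 had a median of 362.4 CPM of 531. Gene by gene, r with Htr1b was 0.92 for Meis2 and 0.84 for Foxp2 but between -0.41 (Dlk1) and 0.13 (Crh) for the other 6 genes of that list. Htr1b rose likewise with the summed interneuron list (r = 0.72, adjusted permutation p = 0.00176, and rho = 0.60, adjusted permutation p = 0.00865). For this sum r was 0.44 with the 2 extreme mice left out and 0.41 within line 1. Its most abundant genes are those of GABA synthesis and vesicular loading, which striatal projection neurons also express. Among them r was 0.76 for Slc32a1, 0.49 for Gad1 and 0.47 for Gad2, while for markers of interneuron classes it ran from -0.50 (Vip) and -0.48 (Adarb2) over -0.22 (Sst) and 0.23 (Pvalb) to 0.70 (Reln) and 0.76 (Lamp5). Htr1b fell with the summed thalamic list (r = -0.58, adjusted permutation p = 0.00737, and rho = -0.67, adjusted permutation p = 0.00235) and with excitatory markers of BLA and cortex (r = -0.56, adjusted permutation p = 0.00978, and rho = -0.62, adjusted permutation p = 0.00865). Within line 1 r was -0.61 with thalamic and -0.39 with excitatory markers. Of the thalamic genes Ntng1 had r = -0.65 with Htr1b and Tcf7l2 -0.17, whereas all 8 excitatory genes had a negative r, from -0.74 (Bhlhe22) to -0.15 (Tbr1).

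Htr2c had the opposite signs. Its log2 CPM fell with striatal markers (r = -0.58, adjusted permutation p = 0.00729, and rho = -0.61, adjusted permutation p = 0.00865), where leaving out the 2 extreme mice gave r = -0.59 and the lines gave -0.65 (line 1) and -0.56 (line 3). It rose with choroid plexus markers (r = 0.60, adjusted permutation p = 0.00729, and rho = 0.55, adjusted permutation p = 0.0148), where r was 0.56 with the 2 extreme mice left out, and by genotype 0.39 (CYFIP1 OE) and 0.80 (WT). With excitatory markers r was 0.48 and rho 0.52 (adjusted permutation p = 0.0395 and 0.0198), and by genotype r was 0.74 (CYFIP1 OE) and 0.19 (WT). The genes most like Htr2c were Tbc1d9 and Dnah9 (r = 0.77 each). All 7 tested choroid plexus markers had a positive r with Htr2c, from 0.42 (Clic6) to 0.67 (Folr1). Ttr, the most abundant of them, had r = 0.59 with Htr2c and -0.55 with Htr1b.

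**Figure D3:**
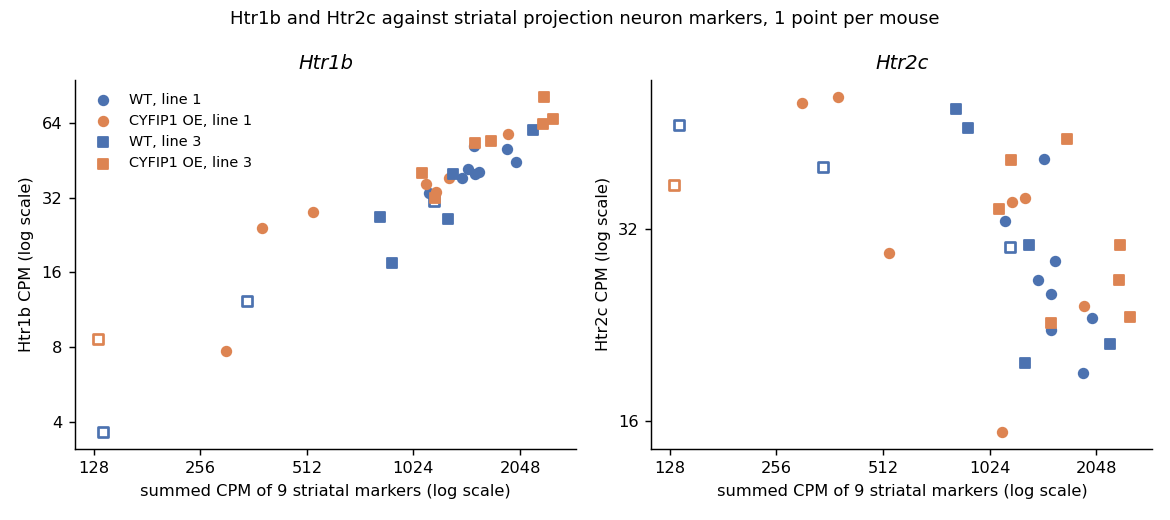
CPM of Htr1b (left) and Htr2c (right) on log scales against the summed CPM of 9 striatal projection neuron markers, 1 point per mouse; colour gives genotype, shape gives line, and open points are the 4 line 3 mice that share a name prefix. Htr1b climbs with the markers across both genotypes and lines (r = 0.94), while Htr2c is lower in mice with more striatal marker RNA (r = -0.58).

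Among the 28 pairs of the 8 tested members, 2 were related after adjustment by both measures. Htr1b and Htr2c had r = -0.55 (adjusted permutation p = 0.0116) and rho = -0.54 (adjusted permutation p = 0.0473), and r was -0.45 with the 2 extreme mice left out, -0.51 for CYFIP1 OE, -0.64 for WT, -0.62 for line 1 and -0.55 for line 3. Htr1b and Htr1a had r = -0.60 (adjusted permutation p = 0.00756) and rho = -0.52 (adjusted permutation p = 0.0473), and r was -0.51 with the 2 extreme mice left out, -0.58 for CYFIP1 OE and -0.63 for WT. For this pair r was -0.74 in line 3, -0.36 in line 1 and -0.36 without the 4 mice sharing a name prefix. All pairs share the library total and the tissue of the punch, and their part in these relations was not tested.

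The other 6 tested members had few relations with the lists. Of the 88 pairs of a member and a marker list, 12 passed adjustment by both measures, 5 with Htr1b, 5 with Htr2c, and 1 each with Htr1a and Htr4. Htr1a fell with striatal markers (r = -0.51, adjusted permutation p = 0.023, and rho = -0.47, adjusted permutation p = 0.0405). For this pair r was -0.73 in line 3 and -0.15 in line 1, and -0.58 in WT and -0.46 in CYFIP1 OE mice. It was -0.29 with the 2 extreme mice left out and -0.19 without the 4 mice sharing a name prefix, so the relation rested largely on those mice. Htr4 rose with oligodendrocyte markers (r = 0.46, adjusted permutation p = 0.0426, and rho = 0.57, adjusted permutation p = 0.0123), and r was 0.45 with the 2 extreme mice left out, 0.54 in line 1 and 0.42 in line 3. For the 6 low members, the genes most alike had r between 0.60 and 0.74, with Nkd2 for Htr1a, Dpy19l1 for Htr1f, Kit for Htr3a, Brip1os for Htr4, Nme4 for Htr5a and Npas3 for Htr7 in first place. Each is the highest value over all tested genes, for a member of few reads, and is given as a description.

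**Figure D4:**
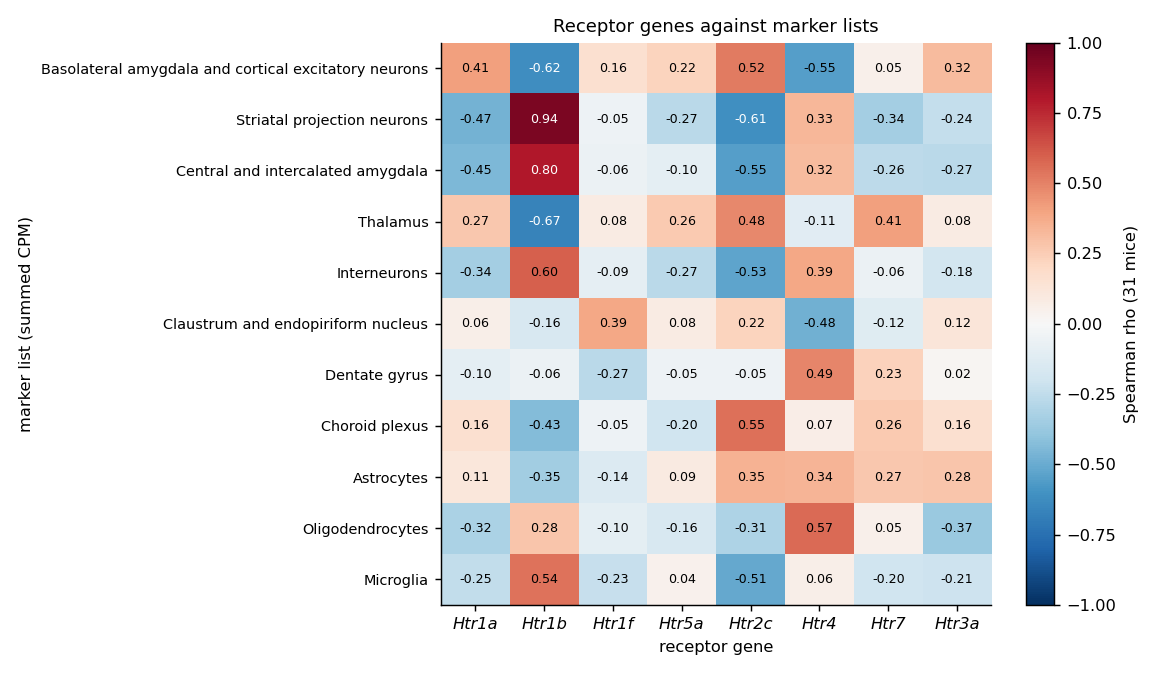
Spearman's rho over 31 mice between the log2 CPM of each of the 8 tested receptor genes (columns) and the summed CPM of 11 marker lists (rows), from blue at -1 to red at 1. Htr1b and Htr2c carry the strongest values and with opposite signs, for example 0.94 and -0.61 with striatal markers.

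Whether CYFIP1 overexpression goes with a change in receptor expression was asked in both lines together, in each line and between lines. With both lines together, none of the 8 tested members was called by edgeR at an adjusted p under 0.05, where 0.0% of the 17428 genes were called. At an unadjusted p under 0.05, 0 of 8 members passed against 4.3% of all genes (750), and 0 of 8 passed at an unadjusted p under 0.005 against 0.293% (51). DESeq2 called 0 genes and also gave no member an unadjusted p under 0.05. Of the members, 4 had a positive and 4 a negative log2 fold change, with a median of 0.0 against -0.01 over all genes.

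Htr1b had 3.64, 39.13 and 59.97 CPM in the lowest, median and highest WT mouse and 7.705, 38.46 and 81.9 CPM in the CYFIP1 OE mice. The genotypes overlapped over most of their range, and the log2 fold change was 0.25 (standard error 0.29, 95% interval -0.33 to 0.84, adjusted p = 0.999). Htr2c had 19.06, 29.28 and 49.44 CPM in WT and 15.37, 34.49 and 51.76 CPM in CYFIP1 OE mice, overlapping likewise, and its log2 fold change came to 0.10 (standard error 0.16, interval -0.23 to 0.42, adjusted p = 0.999). This interval was the narrowest of the members. The smallest p of a member was that of Htr4, which averaged 1.74 CPM in WT and 1.19 CPM in CYFIP1 OE mice (log2 fold change -0.54, standard error 0.38, interval -1.32 to 0.23, edgeR p = 0.164, adjusted p = 0.999). For Htr4, 2 of 15 CYFIP1 OE mice exceeded the mean of the WT mice, but the genotypes overlapped. Htr1f followed with 3.80 and 2.71 CPM (log2 fold change -0.47, interval -1.16 to 0.22), 3 of 15 CYFIP1 OE mice exceeding the mean of the WT mice. Its log2 fold change was -0.79 with age as a covariate (edgeR p = 0.0458, adjusted p = 0.992) but -0.25 with 5 surrogate variables. Blocked by the 5 name groups with mice of both genotypes (18 mice), it was -1.15 (edgeR p = 0.0484, adjusted p = 0.999). Those groups held all line 3 mice but few of line 1, so this is mainly a line 3 value. The log2 fold changes of Htr1a, Htr3a, Htr5a and Htr7 were between -0.23 and 0.26, each with an interval that spanned 0. The widest interval was that of Htr3a, from -1.38 to 0.92. Untested Htr2a had 0.587 CPM in WT and 0.555 CPM in CYFIP1 OE mice.

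In line 1, 0 of 8 members were called at an adjusted p under 0.05, where 0.0% of genes were called (DESeq2 called 1 gene), and 0 of 8 had an unadjusted p under 0.05 against 3.96% of all genes (691). Htr1b was at 33.48, 41.36 and 51.95 CPM in the lowest, median and highest of 8 WT mice and at 7.705, 33.8 and 57.65 CPM in 7 CYFIP1 OE mice. The CYFIP1 OE mice spread more widely to both sides, and 1 of 7 exceeded the mean of the WT mice. For Htr1b here the log2 fold change was -0.45 (standard error 0.38, interval -1.22 to 0.32, adjusted p = 1.00), and an exact two-sided permutation test of the log2 CPM within the line gave p = 0.069. Htr2c averaged 27.4 CPM in WT and 34.6 CPM in CYFIP1 OE mice (log2 fold change 0.34, interval -0.12 to 0.79, exact permutation p = 0.296). Htr4 averaged 1.80 and 0.999 CPM (log2 fold change -0.82, interval -1.97 to 0.32, exact permutation p = 0.138) and 0 of 7 CYFIP1 OE mice exceeded the mean of the WT mice. The 5 other tested members had log2 fold changes between -0.17 and 0.47. The median of the 8 members was 0.31 against 0.0 over all genes. Nearly all WT mice of line 1 shared a name prefix with no CYFIP1 OE mouse, and nearly all CYFIP1 OE mice of line 1 shared none with a WT mouse. Genotype and name group thus cannot be told apart in line 1.

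In line 3, 0 of 8 members were again called at an adjusted p under 0.05 by edgeR, where 0.0% of genes were called, while DESeq2 called 4 genes and no member. At an unadjusted p under 0.05, 1 of 8 members passed, Htr1b, against 7.93% of all genes (1382). Htr1b was at 3.64, 26.44 and 59.97 CPM in the lowest, median and highest WT mouse and at 8.601, 53.7 and 81.9 CPM in the CYFIP1 OE mice. Of the 8 CYFIP1 OE mice, 7 lay above the WT mean of 27.1 CPM, but the groups overlapped. The log2 fold change was 0.89 (standard error 0.36, interval 0.15 to 1.62, edgeR adjusted p = 0.553), and the exact permutation test within the line gave p = 0.0943. Htr1f was the member with the next largest difference, at 3.93 CPM in WT and 2.23 CPM in CYFIP1 OE mice (log2 fold change -0.77, interval -1.74 to 0.20, exact permutation p = 0.188). Htr2c differed by -0.13 on the log2 scale (interval -0.57 to 0.32, exact permutation p = 0.70). The median of the 8 members was -0.25 against -0.02 over all genes.

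Striatal markers had the sign of Htr1b in each line, without passing the test. Of the 8 that passed the filter, 8 had a negative log2 fold change in line 1 (median -0.82) and 8 a positive one in line 3 (median 0.69), with 0 past an unadjusted p of 0.05 in either line. Summed CPM of the list had medians of 1522 in WT and 1112 in CYFIP1 OE mice of line 1, and of 1029 and 1609 in line 3. The log2 summed CPM of the list was used as a covariate in an alternative chosen after seeing the data. There the log2 fold change of Htr1b was 0.23 in line 1 (standard error 0.16, edgeR adjusted p = 1.00). In line 3 it was 0.43 (standard error 0.15, edgeR p = 0.00784 against 0.0194 without the covariate, adjusted p = 0.496). Without the 4 line 3 mice sharing a name prefix the line 3 value was 0.74 (standard error 0.29, edgeR adjusted p = 0.837), and without the mouse of low connectivity it was 1.05 (standard error 0.33, edgeR adjusted p = 0.392).

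The difference of the genotype effect between the lines was tested by itself. It includes the line 1 values, in which genotype and name group cannot be told apart. Of the 8 members, 0 were called at an adjusted p under 0.05, where 0.0% of genes were called by edgeR (DESeq2 called 2 genes and no member). At an unadjusted p under 0.05, 1 of 8 passed, Htr1b, against 8.1% of all genes (1412). The log2 fold change of Htr1b was greater in line 3 than in line 1 by 1.34 (standard error 0.52, interval 0.28 to 2.40, edgeR p = 0.015, adjusted p = 0.548). Of 8 striatal markers, 8 differed in the same direction (median 1.52) and 7 had an unadjusted p under 0.05, none with an adjusted p under it. With the striatal marker level as a covariate the difference for Htr1b was 0.20 (standard error 0.23, edgeR adjusted p = 0.947). The other 7 tested members had differences between -0.96 (Htr3a) and 0.53 (Htr4), each with an interval that spanned 0.

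**Figure D5:**
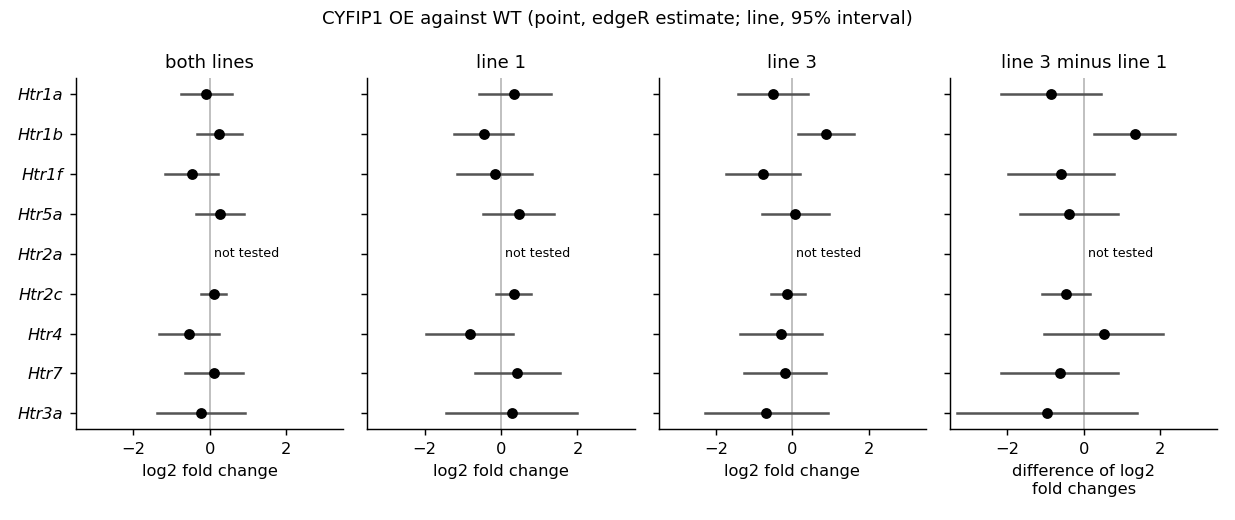
Log2 fold changes of CYFIP1 OE against WT mice (x axis) for each receptor gene with both lines together, in line 1 and in line 3, and the difference between the lines, as edgeR estimates (points) with 95% intervals (lines). Intervals span 0 except for Htr1b in line 3 (0.15 to 1.62) and in the difference between lines (0.28 to 2.40), neither of which passed adjustment, and Htr2a was not tested.

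Choroid plexus and oligodendrocyte markers, the lists with which Htr2c and Htr4 varied, had negative log2 fold changes in CYFIP1 OE mice. With both lines together all 7 tested choroid plexus markers had a negative log2 fold change (median -0.94, 2 with an unadjusted p under 0.05), as did all 6 oligodendrocyte markers (median -0.35, 0 with an unadjusted p under 0.05), and none passed adjustment. Their part in the values of Htr2c and Htr4 was not tested.

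Females and males were compared because Htr2c lies on the X chromosome. Of the 8 tested members 0 were called at an adjusted p under 0.05, where edgeR called 0.0631% of genes (11), and 0 had an unadjusted p under 0.05 against 4.62% of genes (806). DESeq2 called 12 genes and gave no member an unadjusted p under 0.05. Htr2c averaged 32.47 ± 11.96 CPM in 16 females and 32.41 ± 8.396 CPM in 15 males (log2 fold change 0.01, standard error 0.16, interval -0.32 to 0.33, adjusted p = 0.998). For the other tested members the log2 fold changes were between -0.28 (Htr1f) and 0.45 (Htr3a).

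Of 5 further serotonin receptor genes, Htr1d, a Gi/o-coupled receptor, had 8.35 ± 4.05 CPM, above every member other than Htr1b and Htr2c. Htr3b, which encodes a partner subunit of Htr3a, had 1.46 ± 0.990 CPM and Htr6, which couples to Gs, had 1.35 ± 0.984 CPM. Htr2b and Htr5b were at 0 reads in 25 and 22 of 31 mice and did not pass the filter. Of the 3 tested, none passed adjustment in any genotype comparison. Htr1d had the signs of Htr1b, its log2 fold change being -0.76 in line 1 (edgeR p = 0.10, exact permutation p = 0.0283 within the line), 0.73 in line 3 (edgeR p = 0.0977, exact permutation p = 0.118) and greater in line 3 than in line 1 by 1.48 (standard error 0.62, edgeR p = 0.0217, adjusted p = 0.559). With the striatal marker level as a covariate its log2 fold change was -0.12 in line 1 and 0.39 in line 3, and the difference was 0.51 (standard error 0.55, edgeR adjusted p = 0.945). The difference of Htr1d was 0.85 with 5 surrogate variables and 1.38 without the mice aged 77 days, with an unadjusted edgeR p above 0.05 in each.

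Genes of serotonin handling and of the pathways behind the receptors were also counted. Of 8 genes of serotonin synthesis, transport and breakdown 5 passed the filter, and of these 0 passed adjustment and 1 had an unadjusted p under 0.05 with both lines together, against 4.3% of all genes. It was Slc18a2, which loads monoamines into vesicles (log2 fold change 0.51, standard error 0.24, edgeR p = 0.0368, adjusted p = 0.999). In line 1, where genotype and name group cannot be told apart, its log2 fold change was 0.89 (standard error 0.33, edgeR p = 0.011). The difference of Slc18a2 between lines (line 3 minus line 1) was -0.73 (standard error 0.46, edgeR p = 0.12, adjusted p = 0.72). In Gi/o signalling 8 genes were tested, in Gq signalling 7, in Gs signalling 8 and among receptor partners 4, and with both lines together 0 of them had an unadjusted p under 0.05. The smallest p in each was that of Gnai3 (log2 fold change -0.19), Gna11 (0.06), Gnas (0.24) and Arrb2 (0.14). For the difference between lines 0 genes of these lists passed adjustment, and 3 of 8 Gi/o genes, 3 of 7 Gq genes, 2 of 8 Gs genes and 1 of 4 partners had an unadjusted p under 0.05, against 8.1% of all genes. The smallest p were those of Mpdz, a scaffold protein that binds 5-HT2C receptors (difference -1.21, standard error 0.33, edgeR p = 0.000733, adjusted p = 0.507), Gnai1 (-0.78, standard error 0.23, edgeR p = 0.00166, adjusted p = 0.527), Gnaq (-0.56, standard error 0.20, edgeR p = 0.0093, adjusted p = 0.54) and Gnal (0.87, standard error 0.38, edgeR p = 0.0266, adjusted p = 0.57). Adcy5, 1 of the Gs genes, also stands in the list of striatal markers.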

How the data were processed

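RNA from the BLA of 31 mice was sequenced by QuantSeq 3′ Fwd. The authors mapped reads with STAR to GRCm38 with Gencode v11 and quantified genes with Salmon, and the deposited tables hold estimated counts per gene and mouse, one mouse being 1 replicate. Estimated counts were rounded, and symbols were taken from a GENCODE annotation of the same build (48349 of 48709 genes named). Genes reaching 10 reads in 20% of mice or more were tested by the quasi-likelihood F test of edgeR 4.0.16 (R 4.3.3) with TMM scaling, with sex, line and genotype as terms (genotype nested in line for single lines) and Benjamini-Hochberg adjustment over all tested genes. The study's 5 sequencing components were not used here, and 5 surrogate variables (sva 3.50.0) stood in as an alternative. DESeq2 1.42.0, no filter, age, name groups and left-out mice were others. All files hold different libraries (the smallest chi-square per degree of freedom of 465 pairs was 7.19). Log2 CPM used a prior count of 2. Relations used 100000 permutations. Members and lists were chosen with earlier results of these data known. The named genes are the members, for each tested member the 3 genes with the highest r over the 31 mice (the first is printed for low members, and 1 gene is not reported here), and in each list the gene of smallest p. The tests were tried on simulated data, with the 200 changed genes drawn from those with a mean above 20 reads. Htr3a, Htr4 and Htr5a lie under that mean, so the recovery does not apply to them. Each simulated gene kept its own spread, and recovery was not computed by spread or for single members. It is thus no measure of power for the other members either. Among these, Htr1a, Htr1b, Htr1f and Htr7 had biological coefficients of variation of 0.592, 0.532, 0.611 and 0.696. With both lines together edgeR recovered 172 of 200 genes changed by a log2 fold of 1 among 17428, and with line 3 alone changed 191 of 200 at a log2 fold of 2.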

Additional observations from a re-analysis of the deposited data

Results flagged for a closer look

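In each of the 4 groups of genotype and line, the highest and the lowest mouse were set against the rest for each of the 9 members by the ratio of the gap to the range (Dixon's test at 95%). Of the 36 groups of mice 6 were marked, all in line 3. Chance marks about 1 in 20 groups only where values are normally distributed. Low read counts need not be so, and the 9 genes were measured in the same mice, so the rate expected here is not known. Among WT mice Htr1f reached 10.1 CPM in 1 mouse against 4.863 CPM in the next, and Htr3a reached 6.774 CPM against 3.138 CPM. Among CYFIP1 OE mice the highest were 6.515 CPM of Htr1f (next 2.974 CPM), 1.613 CPM of Htr2a (next 0.6223 CPM) and 4.838 CPM of Htr3a (next 1.75 CPM), and the lowest was Htr5a at 0.0 CPM (next 1.933 CPM). The marked mice for Htr3a in both genotypes, and for Htr2a, belong to the 4 line 3 mice that share a name prefix, and the value of Htr2a rests on few reads.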

How the results depend on the processing

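Of the values computed for single members under other settings, 228 kept their direction and side of the threshold and 28 changed sign, each with an adjusted p above 0.05. The cause was not tested. DESeq2 called 1 gene in line 1, 4 in line 3 and 2 in the difference between lines, and fits without the filter called 2 in line 3 and 2 in the difference, where the edgeR test with the filter called 0 in each, and no member was among them. Without the filter 2534 genes had an unadjusted p under 0.05 with both lines together, 2208 in line 1, 3089 in line 3 and 3123 in the difference, with 32936 genes tested. With 5 surrogate variables these counts were 779 in line 3 and 632 in the difference, and without the mice aged 77 days 935 in the difference. With both lines together the number of members with an unadjusted p under 0.05 went from 0 to 1 with age as a covariate (Htr1f, log2 fold change -0.79). It did so too in name groups that hold both genotypes, which are mostly of line 3 (Htr1f, -1.15). The number also went to 1 with the striatal marker level as a covariate, an alternative chosen after seeing the data (Htr1b, 0.34, edgeR p = 0.00315, adjusted p = 0.97). For the difference between lines it went from 1 (Htr1b) to 0 with 5 surrogate variables (0.35), without the mice aged 77 days (1.28) and with the striatal marker level (0.20).

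Signs changed as follows, in log2 fold changes. With both lines together Htr7 was at -0.05 without the mice aged 77 days and at -0.05 with age as a covariate, where Htr1a was at 0.0. Htr1a was at 0.37 and Htr5a at -0.46 in name groups that hold both genotypes, and Htr1a at 0.11 without the 4 line 3 mice sharing a name prefix. In line 1, 5 surrogate variables gave -0.21 for Htr3a and -0.15 for Htr7, leaving out the mice aged 77 days gave -1.22 for Htr3a, and the striatal marker level gave -0.01 for Htr1a, 0.23 for Htr1b, 0.11 for Htr1f and -0.31 for Htr3a. In line 3, 5 surrogate variables gave 0.43 for Htr2c and 0.28 for Htr7, leaving out the 4 mice gave -0.07 for Htr5a and 0.29 for Htr7, and the striatal marker level gave 0.06 for Htr2c and 0.21 for Htr7. For the difference between lines, 5 surrogate variables gave 0.25 for Htr1f, 0.42 for Htr2c, -0.32 for Htr4, 0.20 for Htr5a and 0.43 for Htr7, leaving out the mice aged 77 days gave 0.47 for Htr3a, and the striatal marker level gave 0.18 for Htr7. Between the sexes 5 surrogate variables gave -0.09 for Htr1b and 0.01 for Htr7. In line 3 the log2 fold change of Htr1b stayed positive, between 0.32 with 5 surrogate variables (edgeR p = 0.102) and 1.05 without the mouse of low connectivity. With the surrogate variables Htr1b thus had no unadjusted p under 0.05 in line 3, and Htr2c (0.43, edgeR p = 0.0127, adjusted p = 1.00) took its place as the 1 member that did. In the order of levels Htr4 passed Htr3a without that mouse (1.481 against 1.464 CPM). No paired analysis was possible because the labels carry no replicate numbers shared between groups, and the fit blocked by the 5 name groups with mice of both genotypes is the only blocked one.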
